A study of Mus musculus with 12 samples.

Results

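The expression of 8 liver genes of ketone body metabolism and the fasting response, of 26304 genes with a count in any liver, was followed across sex and statin feeding. They are the ketone body enzyme genes Acat1 and Bdh1, the fasting hormone gene Fgf21, the lipase inhibitor gene Angptl4, the pyruvate dehydrogenase kinase gene Pdk4, the pantetheinase gene Vnn1, and the transcription factor genes Ppara and Creb3l3. They were chosen by name for these roles, with earlier results of these data known. All 8 were among the 11968 genes that passed the filter on low values (above 1 CPM in at least 6 livers).

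The livers came from C57BL/6J mice, an inbred laboratory strain, in 4 groups of 3: female chow, female statin, male chow and male statin. Statin mice ate this chow for 4 weeks with added simvastatin, which blocks cholesterol synthesis at HMG-CoA reductase. The dose was 0.1 g per kg, which the sample labels refer to body weight and the study's methods to food weight. The labels give no age, and the feeding state and the hour at which these livers were collected are not given in the sources used here, although several of these genes are known to follow fasting.

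In the fasted liver, fatty acids are oxidised to acetyl-CoA, and part of it is turned into the ketone bodies acetoacetate and 3-hydroxybutyrate, which are exported as fuel for other organs. The nuclear receptor PPAR-alpha, encoded by Ppara, binds fatty acids and switches on much of this programme. CREB3L3, a membrane-bound factor of the endoplasmic reticulum that is released by cleavage, works with PPAR-alpha on some of the same genes, Fgf21 among them.

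Levels are TMM-normalized CPM, that is, counts relative to the total of the library (CPM) after the libraries were scaled by a trimmed mean of log ratios (TMM). A fold change is on the log2 scale with its standard error (SE), statin against chow or female against male. Its test is two-sided, from edgeR's quasi-likelihood model of all 12 livers. A gene was called at a Benjamini-Hochberg adjusted p under 0.05 over all 11968 genes. An unadjusted p under 0.05 is given as a description and is not a call. Total counts were between 46066381 and 60419223 per liver, at which 3 counts amounted to between 0.0497 and 0.0651 CPM (counting error only). Hepatocyte markers were present in every liver, and the summed levels of adipocyte and of skeletal muscle markers did not exceed 0.327 CPM in any liver. The tissue was bulk liver, in which fewer cells of a type and less RNA per cell cannot be told apart. The 3 livers of a group were separate mice.

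Per kilobase of exon, averaged over the 12 livers, Acat1 (107 CPM per kb) and Creb3l3 (100.3 CPM per kb) were the most abundant. Ppara (54.6), Bdh1 (48.9), Angptl4 (35.3) and Vnn1 (26.7) followed, and Pdk4 (2.33) and Fgf21 (1.92) were the lowest on this scale. Fgf21 rested on between 32 and 212 reads per liver, and Pdk4 on between 103 and 927. Each of the other members had at least 2038 reads in every liver.

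The sequence before the start of Fgf21 is shown because this hormone gene had the largest difference between the sexes in its fold change with statin, and that before the outer start of Creb3l3 because CREB3L3 is one of its regulators. Both are RefSeq sequence of GRCm38.p6, 250 bases 5′ to 3′ on the minus strand. The Fgf21 window is at chr7:45615491-45615740 and the Creb3l3 window at chr10:81098873-81099122. Capitals mark matches, on either strand, to 5 motifs that do not overlap here: the PPAR half-site AGGTCA, the ATF4 response element core TGATGNAA, the E-box CACGTG, the CRE half-site TGACG and the TATA box TATAAA.
Fgf21: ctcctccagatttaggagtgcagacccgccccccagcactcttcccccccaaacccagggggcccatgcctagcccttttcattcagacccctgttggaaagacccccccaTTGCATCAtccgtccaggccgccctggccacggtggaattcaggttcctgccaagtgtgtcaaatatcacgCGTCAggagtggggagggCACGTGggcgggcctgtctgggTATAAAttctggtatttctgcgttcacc
Creb3l3: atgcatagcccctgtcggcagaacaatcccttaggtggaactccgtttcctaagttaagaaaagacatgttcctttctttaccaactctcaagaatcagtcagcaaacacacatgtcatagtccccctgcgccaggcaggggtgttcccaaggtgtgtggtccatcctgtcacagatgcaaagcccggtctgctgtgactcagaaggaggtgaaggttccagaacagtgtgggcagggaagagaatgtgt
The Fgf21 window held 4 of the 5 motifs once each: the ATF4 core read on the opposite strand, between 139 and 132 bases before the start, the CRE half-site on the opposite strand (68 to 64), the E-box (50 to 45) and the TATA box (28 to 23). Of 32851 RefSeq promoters of this length, 3.45% held the ATF4 core, 17.8% the CRE half-site, 6.02% the E-box, 12.4% the TATA box and 14.0% the PPAR half-site. The Creb3l3 window shown held none of the 5. A window before a second Creb3l3 start inside the gene, at chr10:81092592-81092841, held a CRE half-site and a PPAR half-site, the Ppara window held a CRE half-site, and those of Pdk4 and of the 2 Bdh1 starts held none. The table had entries for 5 of the 8 members and none for Acat1, Angptl4 and Vnn1. A match of letters is a description and not a binding site.

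Whether statin moved these genes was asked in each sex. In females, 0 of the 8 were called by edgeR, against 0.100% of all 11968 genes (12 genes), and the lowest adjusted p among them was 0.0951. At an unadjusted p under 0.05, Creb3l3, Vnn1, Fgf21 and Bdh1 lay higher with statin, 4 of 8 against 5.93% of all genes, and none lay lower, against 4.56%. In the same 4 genes every statin female lay above every chow female, which held for 6.03% of all genes, and in none every statin female lay below, against 5.97%. The fold changes of all 8 were positive, with a median of 0.56 on the log2 scale against 0.013 over all genes. On leaving out each of the 12 livers in turn, between 3 and 5 of the 8 lay higher at an unadjusted p under 0.05, always with Creb3l3, Vnn1 and Fgf21 among them. DESeq2 called 3 of the 8 in females, Creb3l3, Vnn1 and Fgf21, where it called 270 genes in all.

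In males, 0 of the 8 were called, against 0% of all genes, and the adjusted p was 1.00 for each member. Fgf21 alone had an unadjusted p under 0.05, and it lay lower, 1 of 8 against 1.11% of all genes, while none lay higher, against 0.844%. This was not stable on leaving out 1 liver: the unadjusted p of Fgf21 was above 0.05 without chow male 1 (0.0893), chow male 2 (0.0539), statin male 2 (0.0591) or statin male 3 (0.0759). Acat1 lay lower at an unadjusted p under 0.05 in edgeR with only the groups compared (0.00462) and with no filter (0.0299). It also did so without statin female 2 (0.0201) or statin female 3 (0.0149). Angptl4 lay higher at an unadjusted p under 0.05 with the replicate block (0.0391), with no filter (0.0396), with only the groups compared (0.0429) and without chow male 3 (0.0347). Every statin male lay below every chow male for Fgf21 and Acat1, 2 of 8 against 4.30% of all genes, and above for none, against 3.64%. The median fold change of the 8 was -0.18 on the log2 scale, against 0.0036 over all genes, and 1 of the 8, Angptl4, was positive.

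The interaction of sex and statin, the female fold change minus the male one, was called for 0 of the 8, against 0% of all genes. At an unadjusted p under 0.05 it was positive for 5 of the 8 (Fgf21, Vnn1, Acat1, Creb3l3 and Bdh1), against 4.62% of all genes, and negative for none, against 3.39%. On leaving out each liver in turn it was positive at this level for between 4 and 6 of the 8, always with Fgf21, Vnn1, Acat1 and Creb3l3 among them. DESeq2 called it for Fgf21 and Creb3l3, among 130 genes.

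**Figure D1:**
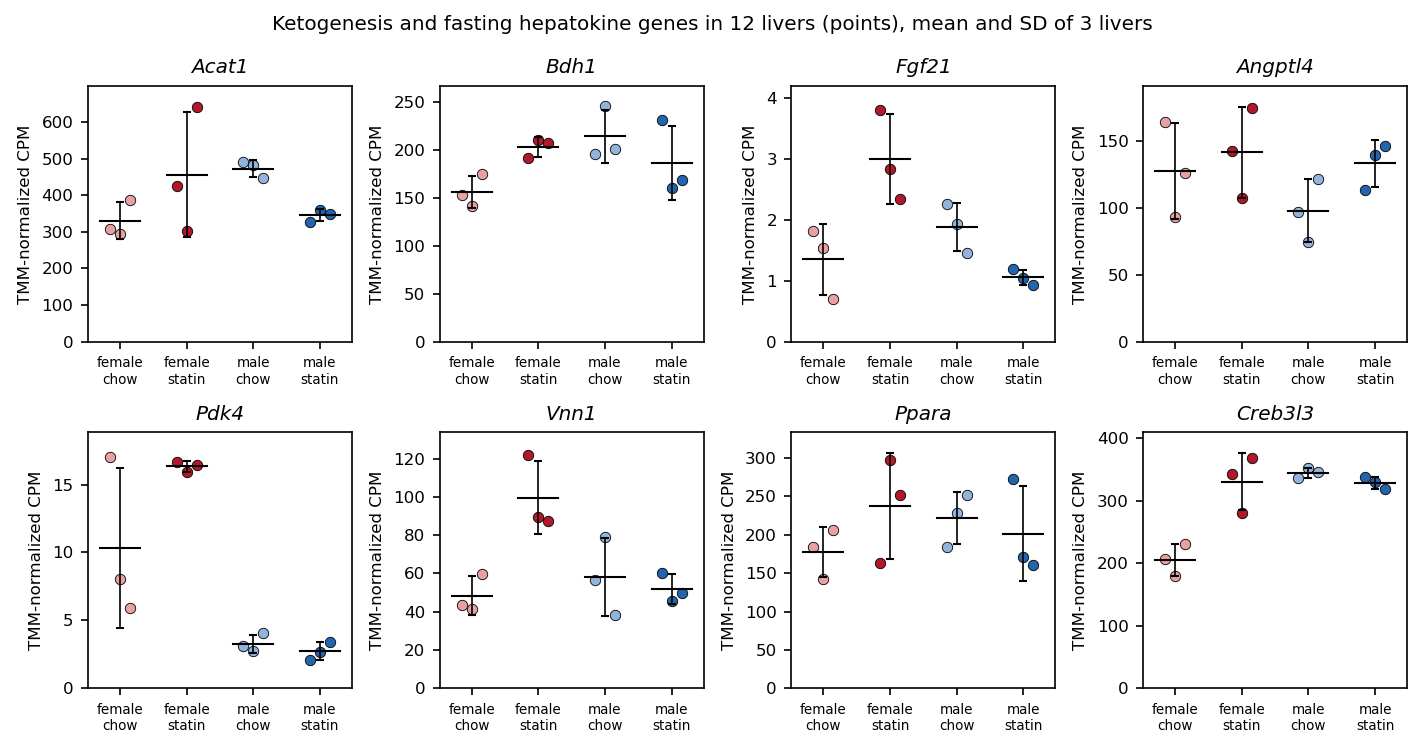
TMM-normalized CPM of the 8 genes in each of 12 livers (points), by group, with the mean (line) and SD (bar) of 3 livers; each vertical axis starts at 0. Creb3l3, Vnn1, Fgf21 and Bdh1 show statin females wholly above chow females, and Pdk4 separates the sexes on both diets.

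**Figure D2:**
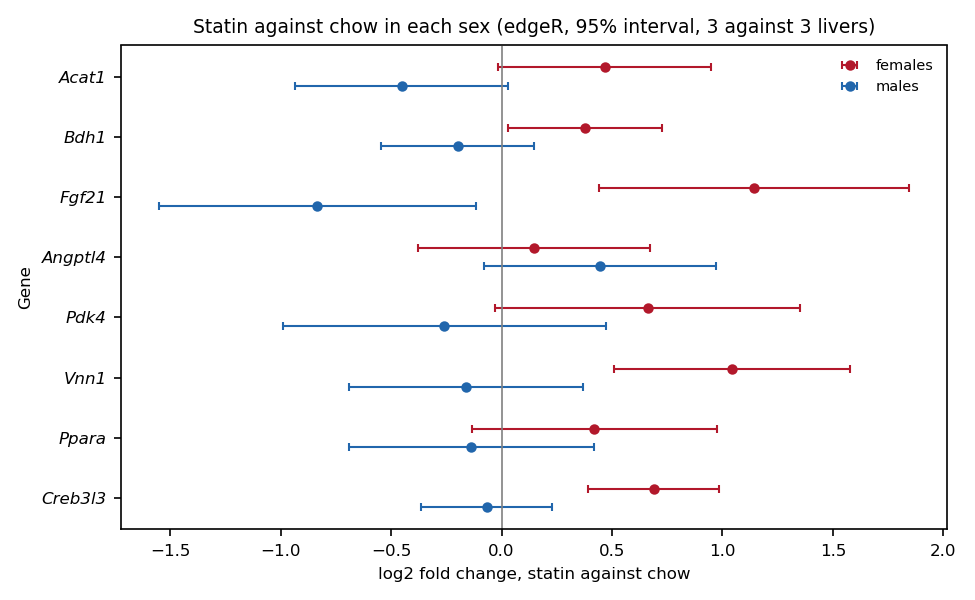
The log2 fold change of statin against chow for each gene with its 95% interval from edgeR, in females (red) and males (blue), 3 livers against 3. All 8 female values are above 0 and 7 of the 8 male values are below it, though for 4 female and 7 male values the interval includes 0.

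Ketone body synthesis starts from the thiolase encoded by Acat1 (chr9:53580522-53610382, minus strand), which joins acetyl-CoA units into acetoacetyl-CoA and also acts in ketone body use. Its level was 307, 295 and 388 CPM in chow females and 425, 302 and 640.2 CPM in statin females. It was 489, 481 and 447 CPM in chow males and 328, 359 and 349 CPM in statin males. The female groups overlapped, with statin female 3 far above the others, while every statin male lay below every chow male. Statin against chow gave a fold change of 0.47 (SE 0.22) in females, with an edgeR adjusted p of 0.503, and -0.45 (SE 0.22) in males, with an adjusted p of 1.00. Without statin female 3 the female value was 0.16, and without statin female 2 it was 0.69. The interaction was 0.92 (SE 0.31) with an adjusted p of 0.438.

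Bdh1 (chr16:31422280-31458901, plus strand) encodes the mitochondrial enzyme that interconverts acetoacetate and 3-hydroxybutyrate, the last step of the pathway. Its level was 153, 141 and 175 CPM in chow females and 191, 211 and 207 CPM in statin females. In males it was 195, 246 and 201 CPM on chow and 231, 161 and 168 CPM on statin. Statin females all lay above chow females, and the male groups overlapped. The fold change was 0.38 (SE 0.16, unadjusted p = 0.0356) in females, an edgeR adjusted p of 0.426, and -0.20 (SE 0.16) in males, an adjusted p of 1.00. The unadjusted p in females was above 0.05 without statin female 2 (0.0677), statin female 3 (0.0535), chow female 1 (0.0678) or chow female 2 (0.0998), with fold changes between 0.32 and 0.38. The male value was -0.38 without statin male 1 (unadjusted p = 0.0243) and -0.087 without chow male 2. Bdh1 overlaps the gene Gm15743 on the other strand, and the counting setting for strand is not given in the sources used here.

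Fgf21 (chr7:45613886-45615490, minus strand) encodes a hormone that the liver releases on fasting and on amino acid or mitochondrial stress. Its level was 1.81, 1.54 and 0.698 CPM in chow females and 3.80, 2.84 and 2.34 CPM in statin females. In males the order of the diets was the other way round, with 2.26, 1.93 and 1.46 CPM on chow and 1.19, 1.05 and 0.934 CPM on statin. Neither pair of groups overlapped. The fold change was 1.14 (SE 0.32), or 2.21-fold, in females, with an edgeR adjusted p of 0.217, and -0.83 (SE 0.33) in males, with an adjusted p of 1.00. The interaction was 1.98 (SE 0.46, 95% interval 0.97 to 2.98), the largest of the 8 genes, with an unadjusted p of 0.00103 and an adjusted p of 0.277. DESeq2 gave 1.96 for it with an adjusted p of 0.0132, and edgeR with no filter on low counts gave 1.97 with an adjusted p of 0.0344. Under limma on log2(CPM + 1), a scale that understates changes of low genes, the interaction was 1.23 (adjusted p = 0.312), with 0.75 in females and -0.48 in males.

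Angptl4 (chr17:33773750-33781830, minus strand) encodes a secreted inhibitor of lipoprotein lipase and a target of PPAR-alpha. Its level was 164, 92.7 and 126 CPM in chow females and 142, 107 and 174 CPM in statin females. In males it was 96.8, 74.8 and 121 CPM on chow and 113, 139 and 146 CPM on statin. The groups overlapped in both sexes. The fold change was 0.15 (SE 0.24, 95% interval -0.38 to 0.67) in females and 0.45 (SE 0.24, 95% interval -0.08 to 0.97) in males, with edgeR adjusted p of 0.947 and 1.00. It was the one member with a higher fold change in males than in females, and this difference, -0.30 (SE 0.34), had an adjusted p of 0.955. The female value was -0.04 without chow female 2 and -0.02 without statin female 3.

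Pdk4 (chr6:5483351-5496309, minus strand) encodes a kinase that switches off pyruvate dehydrogenase and so spares glucose. Its level was 17.0, 8.03 and 5.89 CPM in chow females and 16.6, 15.9 and 16.5 CPM in statin females. In males it was 3.08, 2.72 and 4.04 CPM on chow and 2.11, 2.69 and 3.41 CPM on statin. Chow female 1 lay above all statin females, so the female groups overlapped, and chow females varied far more (CV 57.3%) than statin females (CV 2.31%). In females the fold change was 0.66 (SE 0.32), with an edgeR adjusted p of 0.509, and in males -0.26 (SE 0.34), with an adjusted p of 1.00. Without chow female 1 the female value was 1.24, and without chow female 3 it was 0.39. The male value was -0.083 without chow male 3 and -0.45 without statin male 3.

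Vnn1 (chr10:23894688-23905343, plus strand) encodes vanin-1, which splits pantetheine into pantothenate and cysteamine and is a target of PPAR-alpha. Its level was 43.6, 41.7 and 59.9 CPM in chow females and 122, 89.5 and 87.6 CPM in statin females. In males it was 56.7, 79.0 and 38.3 CPM on chow and 60.4, 45.6 and 49.6 CPM on statin. Statin females lay above all other 9 livers, and the male groups overlapped. The fold change was 1.04 (SE 0.25), or 2.06-fold, in females, with an edgeR adjusted p of 0.127, and -0.16 (SE 0.24) in males, with an adjusted p of 1.00. DESeq2 gave the female fold change as 1.04 with an adjusted p of 0.00585, and edgeR with no filter on low counts gave 1.03 with an adjusted p of 0.00732. The interaction was 1.20 (SE 0.35) with an edgeR adjusted p of 0.337. Chow male 2 set the sign of the male value, which was 0.13 without it.

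Ppara (chr15:85734983-85802819, plus strand) encodes the receptor itself. Its level was 184, 142 and 207 CPM in chow females and 163, 298 and 252 CPM in statin females. In males it was 185, 228 and 251 CPM on chow and 273, 172 and 160.2 CPM on statin. The groups overlapped in both sexes, and the statin groups spread more widely (CV 28.9% and 30.8%) than the chow groups (CV 18.6% and 15.3%). The fold change was 0.42 (SE 0.25, 95% interval -0.13 to 0.97) in females and -0.14 (SE 0.25, 95% interval -0.69 to 0.42) in males, with edgeR adjusted p of 0.660 and 1.00. The female value was 0.22 without statin female 2 and 0.64 without statin female 1, and the male value -0.42 without statin male 1 and 0.0048 without statin male 3. In both statin groups the liver with the highest Ppara was the one in which long transcripts were most abundant. The slope of a liver's log2 level, relative to the mean liver, on log2 exon length was 0.112 in statin female 2 and 0.138 in statin male 1, against between -0.134 and 0.078 in the other livers. Bdh1 (3888 bases of exon) was also highest of its group in these 2 livers. Acat1, Angptl4 and Pdk4 (3758, 3541 and 3511 bases) were each lowest of the group in both livers. The part of this slope in the Ppara and Bdh1 values was not tested.

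Creb3l3 (chr10:81084324-81098874, minus strand) encodes the factor also known as CREB-H. Its level was 206, 179 and 230.3 CPM in chow females, below all other 9 livers. It was 343, 281 and 369 CPM in statin females, 336, 352 and 346 CPM in chow males and 338, 331 and 318 CPM in statin males. Chow females thus stood apart, while statin females and both male groups overlapped. The female fold change of 0.69 (SE 0.14, 95% interval 0.39 to 0.98), or 1.61-fold, had the lowest unadjusted p of the 8 genes, 0.000274, and an edgeR adjusted p of 0.0951. It was called by DESeq2 (0.68, adjusted p = 8.68e-05) and by edgeR without statin female 2 (0.79, adjusted p = 0.0304). In males it was -0.07 (SE 0.14, 95% interval -0.36 to 0.23), with an adjusted p of 1.00. The interaction was 0.76 (SE 0.19) with an adjusted p of 0.305.

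Beside these female values, the summed level of 8 hepatocyte markers was between 101000 and 129000 CPM in chow females and between 121100 and 152100 CPM in statin females, and 2 of the 8 had an unadjusted p under 0.05. The stellate cell and fibroblast markers (309.5 to 367.9 CPM on chow, 209.8 to 325.1 CPM on statin) overlapped, as did the macrophage markers (504.8 to 629.5 and 421.1 to 749.5 CPM), and in each list 0 markers had an unadjusted p under 0.05. The endothelial (311.2 to 333.2 and 259 to 386.2 CPM), cholangiocyte (30.7 to 45.8 and 17.5 to 49.2 CPM), other immune (24.8 to 32.8 and 24.4 to 37.9 CPM) and pancreatic acinar markers (7.77 to 8.90 and 6.03 to 10.9 CPM) overlapped too, though both tested markers of the other immune list had an unadjusted p under 0.05 in females. In males the hepatocyte markers summed to between 86320 and 129100 CPM on chow and between 89650 and 100700 CPM on statin. The part of cell content in the values of the 8 genes was not tested.

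Females and males were then compared on each diet, with the same livers as above, so these contrasts are not independent of the statin contrasts. Where the livers of the sexes are said not to overlap, the share of all genes that did so is not given here. Such a separation is a description only. On chow, macrophage markers summed to 504.8 to 629.5 CPM in females and 281.1 to 452.1 CPM in males. Stellate cell and fibroblast sums were 309.5 to 367.9 and 192.1 to 217.3 CPM, and endothelial sums 311.2 to 333.2 and 220.2 to 288.4 CPM. Other immune sums were 24.8 to 32.8 and 10.6 to 18.1 CPM. Cholangiocyte sums were also higher in females, hepatocyte sums overlapped and acinar sums were lower. The part of cell content in the sex differences was not tested. EdgeR called 2 of the 8 members on chow, against 10.4% of all genes. Creb3l3 was lower in females than in males, by a fold change of -0.75 (SE 0.14, adjusted p = 0.00468). Pdk4 was higher in females, by 1.66 (SE 0.33), or 3.15-fold, with an adjusted p of 0.00799, and every chow female lay above every chow male. Without chow female 1, the highest of the group, this difference was 1.08, with an adjusted p of 0.0201. For Bdh1 (-0.46, SE 0.16, edgeR adjusted p = 0.0928) and Acat1 (-0.52, SE 0.22, edgeR adjusted p = 0.167) every chow female lay below every chow male, and neither was called. Bdh1 on chow was called by DESeq2 (adjusted p = 0.0412), by edgeR with only the groups compared (0.0433) and by edgeR without statin male 1 (0.0437), and Acat1 by edgeR with only the groups compared (0.0294). For Fgf21 (-0.47), Ppara (-0.32), Vnn1 (-0.26) and Angptl4 (0.39) the chow groups overlapped.

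On statin, hepatocyte markers summed to 121100 to 152100 CPM in females and 89650 to 100700 CPM in males. Macrophage sums were 421.1 to 749.5 and 275.9 to 348.2 CPM, and other immune sums 24.4 to 37.9 and 9.74 to 15.3 CPM. Stellate cell, endothelial and cholangiocyte sums overlapped, and acinar sums were lower in females. The part of cell content was not tested here either. EdgeR called 3 of the 8 on statin, against 6.28% of all genes, all of them higher in females. Pdk4 differed by 2.58 (SE 0.34), or 5.96-fold, with an adjusted p of 0.000674, and every statin female lay above every statin male. Fgf21 differed by 1.50 (SE 0.33), or 2.83-fold, with an edgeR adjusted p of 0.0177, and Vnn1 by 0.94 (SE 0.25), or 1.92-fold, with an adjusted p of 0.0404. For neither gene did the groups overlap. Under limma the Fgf21 difference was 0.89, with an adjusted p of 0.0288. The Fgf21 call was lost without statin female 1 (adjusted p = 0.0538), without statin male 2 (0.0709) or without statin male 3 (0.071). The Vnn1 call was lost on leaving out any of 8 of the 12 livers, with adjusted p up to 0.158, among them each statin male, statin females 1 and 2, chow females 1 and 2 and chow male 1. It was also lost with the replicate number as a block (adjusted p = 0.0803), and under limma, with library size alone or with only the 2 groups compared in the model (0.0826, 0.0787 and 0.0517). For Creb3l3, lower in females on chow, the difference on statin was 0.01 (95% interval -0.29 to 0.30), and its sign changed with the scaling.

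**Figure D3:**
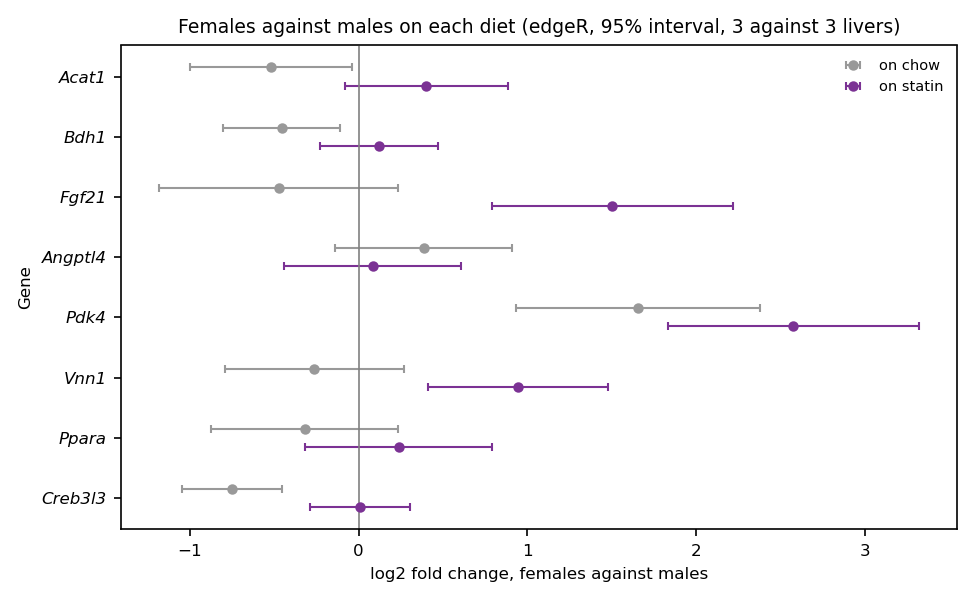
The log2 fold change of females against males for each gene with its 95% interval from edgeR, on chow (grey) and on statin (purple), 3 livers against 3. Pdk4 is above 0 on both diets, Creb3l3 is below 0 on chow and at 0.01 on statin, and Fgf21 and Vnn1 are above 0 on statin.

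The levels of the members did not all move together from liver to liver. After the group means were removed, the correlation of log2 levels over the 12 livers was 0.84 for Acat1 with Creb3l3, 0.75 for Bdh1 with Ppara and 0.61 for Angptl4 with Pdk4, while it was -0.50 for Pdk4 with Vnn1, -0.45 for Fgf21 with Ppara, -0.42 for Acat1 with Fgf21 and -0.39 for Fgf21 with Creb3l3. These values are a description, over livers that share their group and their library. Among 7641 genes whose mean was 10 CPM or more, those most like each member over the 12 livers included peroxisomal or mitochondrial enzymes of fatty acid oxidation for 2 of them. They were Acaa1b for Bdh1 (r = 0.94), beside Lamp1 (r = 0.93), and Eci1 and Hadh for Acat1 (r = 0.93 and 0.92). Ppara was nearest to Slc22a23 (r = 0.97). The pattern of Creb3l3 was nearest to Optn (r = 0.98) and Acot12 (r = 0.96), and that of Pdk4 to Txnip (r = 0.95) and Nt5e (r = 0.94). Vnn1 was nearest to Ilvbl (r = 0.89) and Pctp (r = 0.88), Angptl4 to G6pc (r = 0.82) and Slc10a1 (r = 0.80), and Fgf21 to Elmod3 (r = 0.81) and Acot1 (r = 0.79). For Fgf21 the correlation within groups was 0.27 with Elmod3 and 0.088 with Acot1, for Pdk4 it was 0.50 with Txnip and 0.46 with Nt5e, and for Creb3l3 with Acot12 it was 0.67, each below the value over all livers. For Bdh1 with Acaa1b it was 0.92 and for Ppara with Slc22a23 0.97.

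The genes around the members were described in lists of known roles, by their counts at an unadjusted p under 0.05 beside the shares over all genes given above. Of 12 tested genes of ketone body enzymes and transport, 4 lay higher and 1 lower in statin females, and 0 lay either way in males. For Slc16a7, a monocarboxylate transporter, the fold change was 0.62 (SE 0.15, edgeR adjusted p = 0.129) in females and -0.08 (SE 0.15, adjusted p = 1.00) in males. The list includes Acat1 and Bdh1, and edgeR called none of its genes in either sex. Of 8 thiolases, which include Acat1, 4 lay higher in females, among them Acaa1b (1.05, SE 0.27, edgeR adjusted p = 0.174) and Hadhb (0.70, SE 0.20, edgeR adjusted p = 0.217). Acaa1b has a near-identical neighbour, Acaa1a, with which it may share reads.

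Of 50 tested PPAR-alpha targets, 37 lay higher and 0 lower in statin females (median fold change 0.69), and 0 lay higher and 5 lower in males (median -0.21). Without the 5 members the list holds, 34 of 45 lay higher in females. In females edgeR called 4 of the 50, and all 4 rose: Acot1 by 2.14 (SE 0.27, adjusted p = 0.0306), Acot2 by 1.66 (SE 0.22, adjusted p = 0.0306), Slc27a1 by 1.13 (SE 0.17, adjusted p = 0.0382) and Pex11a by 0.99 (SE 0.16, adjusted p = 0.0382). Acot1 and Acot2 are acyl-CoA thioesterases of near-identical sequence, so their reads may be split. All 4 calls were lost with only the groups compared in the model (adjusted p between 0.314 and 0.324) and without any of 7 single livers (chow female 2, statin female 3, each chow male, and statin males 2 and 3). Without chow female 1 or statin male 1, 1 of the 4 was called, and with the replicate block 2 of the 4 were called. Over all alternatives the fold change of Acot1 lay between 1.89 and 2.44 and that of Pex11a between 0.91 and 1.12. Slc27a1 is a fatty acid transporter and Pex11a a factor of peroxisome division. Of 20 partners and cofactors of PPAR-alpha, 1 lay higher and 2 lower in females. Lpin1, a PPAR-alpha coactivator and phosphatidate phosphatase, had -1.62 (SE 0.52, edgeR adjusted p = 0.264) in females and 1.73 (SE 0.52, adjusted p = 1.00) in males, and Rxrg, a partner receptor, had 0.61 (SE 0.16) and -0.20 (SE 0.16).

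Of 17 hepatokines, 7 lay higher in females, Fgf21 included, and 1, Fgf21, lay lower in males. Enho, which encodes adropin, had 1.39 (SE 0.40, edgeR adjusted p = 0.218) in females and -0.18 (SE 0.39) in males, and Tsku, which encodes tsukushi, had 1.31 (SE 0.33, edgeR adjusted p = 0.153) and 0.54 (SE 0.32). Of 5 genes of FGF21 receptors and turnover, 1, Fgfr3, lay lower in females (-0.28, SE 0.13). Of 13 genes of the lipoprotein lipase axis, in which Angptl4 acts, 1 lay higher in females and 1 in males, the latter Lipg, which encodes endothelial lipase (0.49, SE 0.21). Of 13 genes of pyruvate dehydrogenase and its kinases, 3 lay lower in females, among them the subunit genes Pdhb (-0.64, SE 0.17, edgeR adjusted p = 0.194) and Dlat (-0.76, SE 0.22, edgeR adjusted p = 0.219), and 0 lay either way in males. Of 12 genes of pantetheine and coenzyme A, 2 lay higher in females, Vnn1 and the pantothenate kinase gene Pank3 (0.26, SE 0.11). Of 10 CREB3L3 targets, 3 lay higher in females and 2 lower in males. Fgf21 and Apoa4, which encodes an apolipoprotein, were in both counts, the latter with 0.74 (SE 0.24) in females and -1.05 (SE 0.24) in males. Cidec, which encodes a lipid droplet protein, had 1.24 (SE 0.54) and -0.74 (SE 0.54). Of 6 genes of the CREB3L family and its processing, 1 lay higher in females, Creb3l3 itself, and 1 in males, Creb3l2 (0.75, SE 0.21).

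In lists of other fasting, feeding and stress programmes at most 2 genes each lay higher in statin females. Of 25 glucagon and FoxO fasting genes, 2 lay higher and 4 lower in females (median -0.12), with Cyp7a1, the rate-limiting enzyme of bile acid synthesis, at 2.45 (SE 0.48, edgeR adjusted p = 0.0951) and Got1, a transaminase, at -1.07 (SE 0.30, edgeR adjusted p = 0.210). Of 16 genes of feeding and insulin, 0 lay higher and 11 lower in females (median -1.11), and 1 lay either way in males (median 0.22). Acly, which makes acetyl-CoA for lipid synthesis, had -2.12 (SE 0.44, edgeR adjusted p = 0.0968) in females, and Tkfc, a fructose-pathway kinase, had -0.88 (SE 0.19, edgeR adjusted p = 0.110). Of 17 ATF4 stress genes, which include Fgf21, 2 lay higher and 3 lower in females (median -0.40), and in males Fgf21 alone lay lower. Atf5, a factor of this response, had -0.57 (SE 0.12, edgeR adjusted p = 0.0968) in females and Psph, an enzyme of serine synthesis, had -0.80 (SE 0.22, edgeR adjusted p = 0.186). Of 14 clock output genes, 1 lay higher in females, Hlf (0.49, SE 0.14, edgeR adjusted p = 0.218), and 1 in males, Ciart (0.72, SE 0.23).

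**Figure D4:**
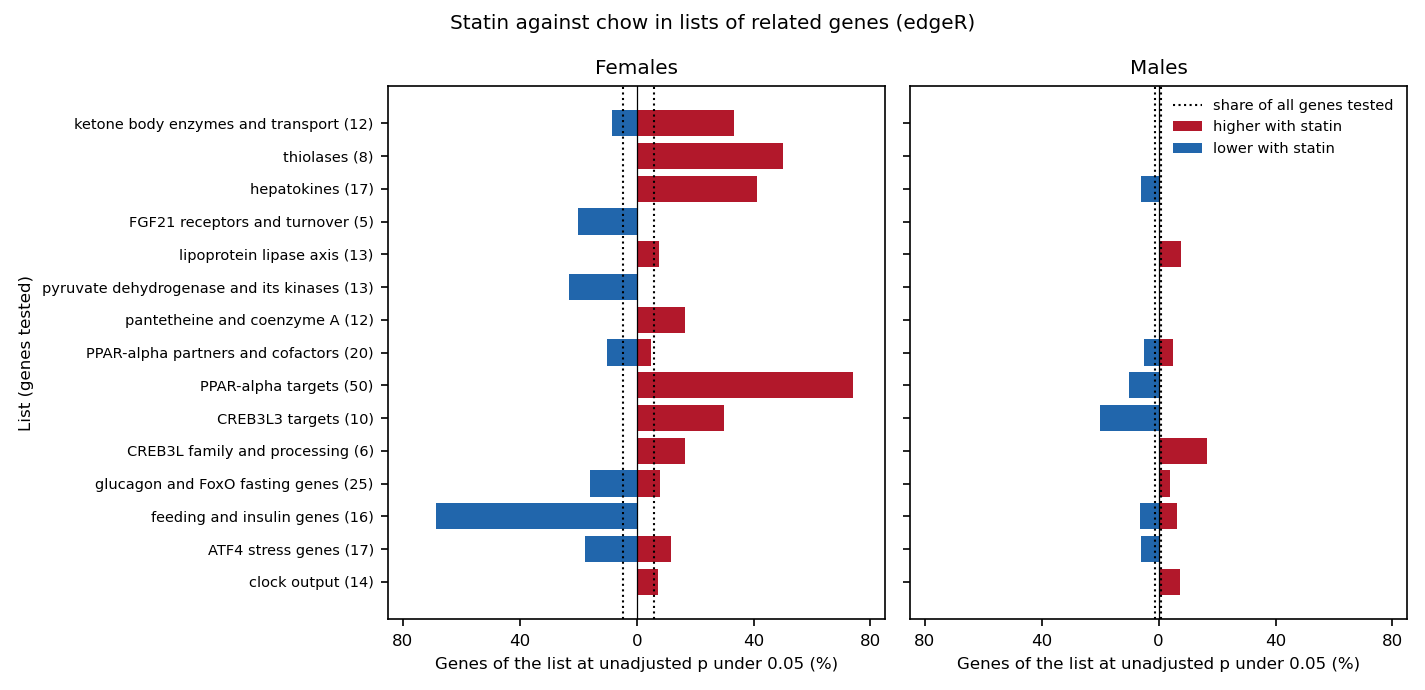
Share of each list's tested genes (percent, number tested in brackets) with an unadjusted p under 0.05 for statin against chow in females (left) and males (right), higher to the right in red and lower to the left in blue. Dotted lines give the same shares over all genes, and in females 37 of 50 PPAR-alpha targets lay higher and 11 of 16 feeding and insulin genes lay lower.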

How the data were processed

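RNA from 12 mouse livers, 3 in each of 4 groups taken from the sample labels, was sequenced as poly(A)-selected, strand-specific, paired-end libraries. Per the labels, the authors used STAR 2.4.1a, HTSeq and edgeR 3.28.1 with GRCm38. They deposited CPM values of all genes and counts of 11968 genes above 1 CPM in at least 6 livers. The deposited count table is named as TMM-normalized but holds whole reads, of which 0 values differed from those recovered from the deposited CPM (100% whole within 0.02 reads).

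The counts were fitted with edgeR 4.0.16 (quasi-likelihood, TMM, 4 groups, no covariate, common dispersion 0.038, prior degrees of freedom 4.14). The SE is the absolute log2 fold change over the square root of F, and intervals cover 95%. The code was tested on simulated data. Alternatives were DESeq2 1.42.0, limma 3.58.1 on log2(CPM + 1), other scalings and filters, only the groups compared, a replicate block, and leaving out each liver. Positions and exon lengths are from GENCODE vM21 of GRCm38, another release than the authors' annotation, and promoters from RefSeq of GRCm38.p6. IDs were matched to symbols for 99.8% of the counted genes. R 4.3.3 and Python 3.11.15 were used.

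The 8 genes and all lists were chosen with earlier results of these data known, and support nothing independently. The genes named are the 8, the 2 genes of each list with the lowest unadjusted p in either sex, list genes called at an adjusted p under 0.05, and the 2 genes most correlated with each member; some genes under this rule are not reported here. Marker lists of 9 cell types were summed per liver. All 12 livers and all sample columns were used.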

Additional observations from a re-analysis of the deposited data

Results flagged for a closer look

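The statin fold change differed between females and males at an unadjusted p under 0.05 in edgeR's test of the difference itself for 5 of the 8 genes, and none passed the adjustment over all genes. On the log2 scale, female minus male, the difference was 1.98 for Fgf21, 1.20 for Vnn1, 0.92 for Acat1, 0.76 for Creb3l3 and 0.58 for Bdh1. Each group had 3 livers, too few for a test of single outlying livers.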

How the results depend on the processing

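Of the values for the 8 genes under the alternatives, 739 kept their direction and side of the threshold, 12 moved past the threshold, 15 lost it and 21 changed sign. The cause was not tested. The number of genes called in females (12 with all livers) was 270 with DESeq2, 7 with limma, 148 with no filter, 0 with only the groups compared (808 at an unadjusted p under 0.05), 5 with the replicate block, and between 0 and 75 on leaving out 1 liver, highest without statin female 2 (75) or statin female 1 (62), 2 without chow female 1, 1 without statin male 1, and 0 without any of 7 of the 12 livers (chow female 2, statin female 3, each chow male, and statin males 2 and 3). In males (0 by edgeR, 234 unadjusted) it was 4 with DESeq2 and 0 without any 1 liver, while the count at an unadjusted p under 0.05 lay between 127 (without statin male 2) and 703 (without statin male 1). For the interaction (0 by edgeR, 959 unadjusted) it was 130 with DESeq2, 103 with no filter, and between 0 and 14 without 1 liver. For sex on chow (1250) it was 1946 with DESeq2, 2151 with only the groups compared, and between 635 and 1586 without 1 liver. For sex on statin (751) it was 1284 with DESeq2, 292 with only the groups compared, 500 with the stricter filter of 5 CPM (at which Fgf21 was not tested), and between 378 and 743 without 1 liver. With library size alone, 565 of 1218 genes called on chow were higher in females, against 713 of 1250 with TMM, and on statin 356 of 683 against 524 of 751.

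Signs changed for values near 0. Creb3l3 in females against males on statin was -0.0070 with DESeq2 and with its size factors in edgeR, -0.0928 with limma, -0.0828 with library size alone, -0.02 with no filter, -0.00016 with the replicate block, and between -0.0765 and 0.0981 without 1 liver. Angptl4 in that contrast was -0.0265 with limma, -0.0118 with library size alone and between -0.0967 and 0.23 without 1 liver. Without 1 liver, Angptl4 in females lay between -0.0360 and 0.38, Vnn1 in males between -0.39 and 0.13, Vnn1 in females against males on chow between -0.49 and 0.0270, and Ppara in males between -0.42 and 0.0048. The calls of Creb3l3 and Pdk4 on chow and of Pdk4 on statin held without each liver in turn, with adjusted p of at most 0.0397.

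The replicate numbers were taken as names of different mice. The deviations of same-numbered chow and statin livers from their group means correlated at -0.29 on average in females and -0.34 in males. For different numbers the averages were 0.15 and 0.18. Deviations from a mean of 3 livers sum to 0, so the second pair of averages largely follows from the first. The contrast between them does not test a pairing. With the replicate block the Vnn1 call on statin was lost (0.94, adjusted p = 0.0803), and no other call of the 8 genes changed. With 3 livers a group, the 95% intervals of the female and male fold changes spanned between 0.59 and 1.46 log2 units, and Fgf21 at 32 to 212 reads carried the most counting error.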
